A study of Bos taurus with 12 samples.

Results

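The genes described here are the aminoacyl-tRNA synthetases and their scaffold proteins, chosen by gene symbol from a list of 38 names, all 38 of which were found among the 32637 genes of the count table. They comprise 19 genes of cytosolic enzymes, 16 genes of mitochondrial enzymes, TARS3 (a paralog of the cytosolic threonyl-tRNA synthetase) and the scaffold genes AIMP1 and AIMP2. RNA-seq compared female with male expanded bovine blastocysts, to find the transcripts that differ between the sexes at this stage. The embryos were produced in vitro from slaughterhouse oocytes and the semen of rotated bulls, and each was cut so that 1 piece was sexed by PCR and the other, which held both inner cell mass and trophectoderm, was sequenced. Expanded blastocysts were collected on more than 1 day of culture, and the day, week and bull of a pool are not given in the sources used here. No treatment that separated the groups is described. There were 6 female and 5 male libraries, each from a pool of a pair of cut embryos of the same sex. A replicate is therefore a pool, and in such pools fewer cells of a type and less RNA per cell cannot be told apart.

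An aminoacyl-tRNA synthetase joins an amino acid to the tRNA that carries its anticodon, the step that fixes the meaning of each codon before translation. Mammalian cells keep a cytosolic and a mitochondrial set, and both are encoded in the nucleus. By the naming convention the cytosolic gene usually ends in 1 and the mitochondrial gene in 2. GARS1 and KARS1 are exceptions, since each makes both forms of its enzyme. Several cytosolic enzymes are held with the scaffold proteins AIMP1 and AIMP2 in the multisynthetase complex. Many cytosolic synthetase genes are known targets of ATF4, the transcription factor of the amino acid response, which also drives ASNS, PSAT1 and PHGDH.

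The libraries held between 6664112 and 21392764 counted reads, so a value here carries little counting error for the cytosolic genes and more for the mitochondrial ones. The unit of level is CPM, the counts brought to 1 library size by TMM factors, and CPM can be set beside each other between libraries but not between genes, since exon lengths were not used here. XIST, the RNA of the inactive X chromosome, ran from 52.3 to 261 CPM in the female pools and from 0.745 to 3.97 CPM in the male pools. All 10 markers of trophectoderm, 6 of 6 analysed markers of the inner cell mass and 5 of 7 markers of the hypoblast passed the count filter. Of the 7 cumulus cell markers 3 also passed it, while AMH and FOXL2 had no more than 3 counts in any library. The summed cumulus markers ran from 7.19 to 32.7 CPM in the female pools and from 5.38 to 29.5 CPM in the male pools. Male replicate 5 stood apart: it had the most counted reads and the fewest genes with a count (14937, against 16985 to 18550 in the other libraries), and its summed trophectoderm markers were at 36145 CPM, against 7879 to 23154 CPM elsewhere. Main fitted differences that rest on it are given with and without it. Among the 38 genes, 37 passed the count filter and were tested, and TARS3 was not.

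No synthetase or scaffold gene was called sex-biased. The call needed a Benjamini-Hochberg false discovery rate under 0.1 and a fold change over 1.5 in edgeR's quasi-likelihood test over 12802 genes, which called 1.91% of all tested genes (0.414% as higher in males). All 38 genes are autosomal in the RefSeq annotation of ARS-UCD 2.0, and among the tested autosomal genes the share called was 0.707%. The lowest adjusted p of any member was 0.125, for QARS1. At an unadjusted p under 0.05, 4 of the 37 were higher in males (QARS1, MARS1, WARS1 and KARS1), against 6.26% of all tested genes, and 0 were higher in females, against 6.95%. DESeq2 called 2 members male-biased, MARS1 and WARS1, and edgeR without the count filter called these and CARS1, where the same fits called 0.683% and 0.876% of genes as higher in males. Neither fit was repeated without male replicate 5, the highest pool in each of these genes.

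The fitted differences nevertheless lay mostly on 1 side. The fitted log2 fold change was above 0 (higher in males) for 17 of 19 cytosolic enzymes, 12 of 16 mitochondrial enzymes and both scaffold genes, 31 of 37 in all, against 50.5% of all tested genes and 52.4% of the autosomal ones. Its median was 0.34 over the cytosolic enzymes and 0.17 over the mitochondrial enzymes, beside 0.01 over all tested genes. Without male replicate 5 the counts were 18 of 19 and 10 of 16, and the median of the mitochondrial enzymes was 0.08, while that of the cytosolic enzymes was 0.36. The standard errors show how little of this was resolved gene by gene: their median was 0.20 for cytosolic and 0.27 for mitochondrial enzymes on the log2 scale. All members were measured in the same pools, so their signs are not independent of each other, and the counts were not tested.

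**Figure D1:**
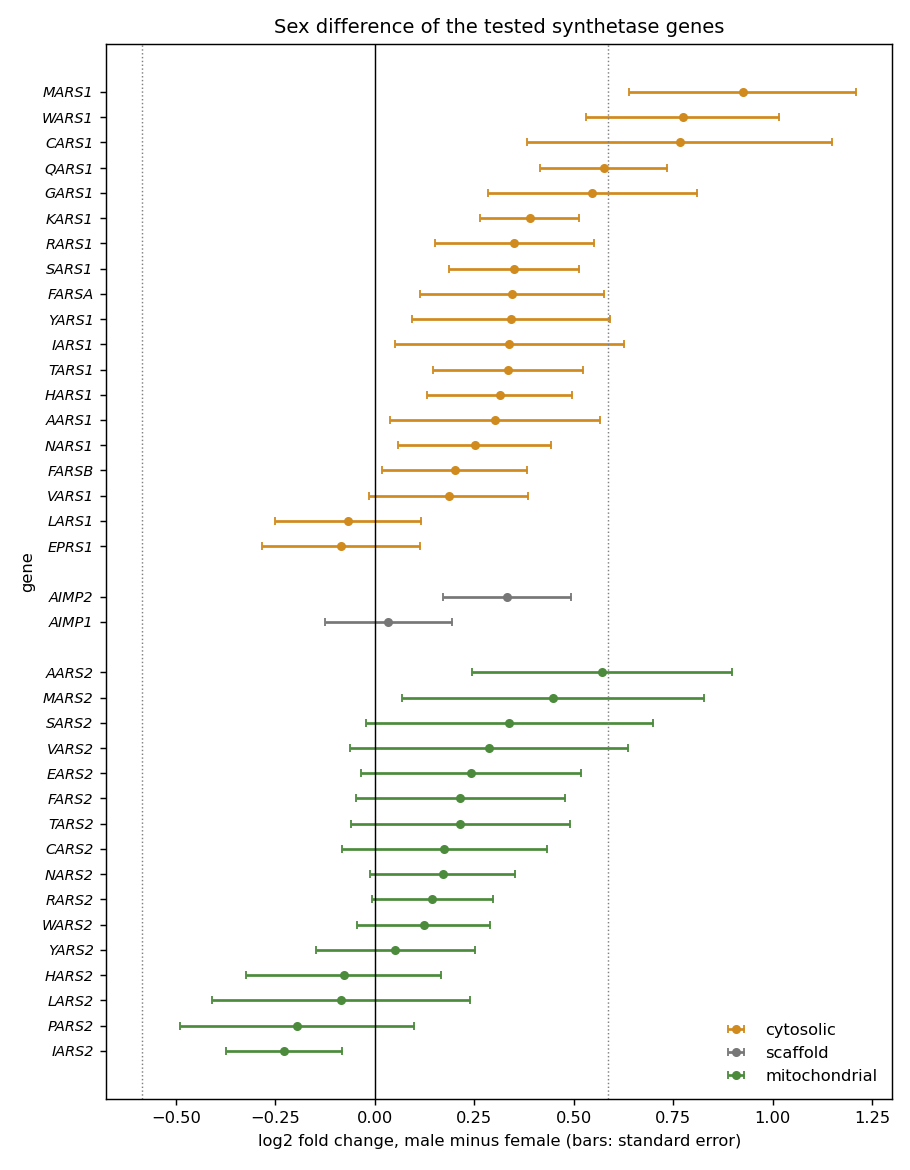
Fitted log2 fold change (male minus female, x axis) of the 37 tested genes, with bars for the standard error, by group; dotted lines mark a fold change of 1.5. MARS1 lies farthest to the right at 0.92 and IARS2 farthest to the left at -0.23, and the cytosolic enzymes lie to the right of 0 in 17 of 19 cases.

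QARS1, on chromosome 22 at 50911689 to 50919174, encodes the cytosolic glutaminyl-tRNA synthetase and was the gene nearest to a call. Its level in the male pools was 68.3, 64.3, 67.6, 64.3 and 79.9 CPM for replicates 1 to 5, and in the female pools it ran from 38.9 to 60.8 CPM with a median of 45.2. The lowest male pool lay above the highest female pool. The means were 68.9 ± 6.42 CPM for the 5 males and 47.2 ± 8.50 CPM for the 6 females (SD), a log2 fold change of 0.57 (SE, its standard error, 0.16, edgeR adjusted p = 0.125). This is a fold of 1.49, just under the threshold of 1.5. In edgeR QARS1 thus missed both limits of the call. DESeq2 gave it an adjusted p of 0.0441, and there the fold alone kept it from being called. Without male replicate 5 the male mean was 66.1 ± 2.16 CPM (SD, n = 4). Leaving a pool out cannot create an overlap, so the separation of the remaining pools is no separate support. It was found for 2.56% of all tested genes without that pool.

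KARS1, on chromosome 18 at 2923438 to 2937278, encodes lysyl-tRNA synthetase for the cytosol and the mitochondrion. It was the only other member without overlap between the sexes. The male pools had 433, 450, 449, 461 and 503 CPM, and the female pools from 284 to 398 CPM with a median of 352. The log2 fold change was 0.39 (SE 0.12, edgeR adjusted p = 0.189), the smallest of the 4 members at an unadjusted p under 0.05, and KARS1 also varied little among the males, at 5.74% (coefficient of variation). Of all tested genes, 1.43% had every male pool above every female pool, and among the 37 members it was these 2, both enzymes of the multisynthetase complex. No member had every female pool above every male pool, against 1.88% of tested genes.

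MARS1 and WARS1 had the largest fitted differences of all members, and in both male replicate 5 was the highest pool. MARS1, the cytosolic methionyl-tRNA synthetase (chromosome 5, 55960457 to 55979225), was at 39.6, 50.5, 55.5, 40.0 and 108 CPM in male replicates 1 to 5. In the female pools it was at 18.6 to 44.0 CPM with a median of 30.6. The pools overlapped, since female replicate 3 at 44.0 CPM was above male replicates 1 and 4. The log2 fold change was 0.92 (SE 0.29, edgeR adjusted p = 0.177), or 0.65 without male replicate 5 (edgeR adjusted p = 0.221). The male mean was 58.8 ± 28.5 CPM (SD, n = 5), and 46.4 ± 7.91 CPM (SD, n = 4) without male replicate 5, beside 30.4 ± 9.68 CPM (SD, n = 6) in females. The annotated MARS1 overlaps DDIT3 by 54 bases, and the strand setting of the counting is not given in the sources used here.

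WARS1 (chromosome 21, 65238587 to 65261044), the cytosolic tryptophanyl-tRNA synthetase, was at 225, 195, 260, 199 and 407 CPM in the male pools and at 91.9 to 232 CPM, median 151, in the female pools. Only male replicates 3 and 5 were above the highest female pool, replicate 3. The log2 fold change was 0.77 (SE 0.24, edgeR adjusted p = 0.183). Without male replicate 5 it was 0.61 (edgeR adjusted p = 0.229). The male mean was 257 CPM, and 220 CPM without that pool, beside 152 CPM in females. Without female replicate 3 WARS1 was called male-biased, with a log2 fold change of 0.92 (edgeR adjusted p = 0.0829), and this was the only call of a member among the 11 fits that each left out 1 library. In that fit 0.413% of genes were called as higher in males.

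For all 4 genes the male mean was above the female mean within each of the 3 library numbers. The library number is the first number in a library's name and served as a block in the test. The 4 genes were chosen by their p in that test. For QARS1 and KARS1, without overlap between the sexes, no other outcome was possible. The agreement is therefore no separate support. For QARS1 the means of males and females were 66.3 and 41.4 CPM in number 1, 67.6 and 53.6 CPM in number 2, and 72.1 and 46.7 CPM in number 3. For KARS1 they were 442 and 379 CPM, 449 and 321 CPM, and 482 and 342 CPM in the same order. Library number 2 holds 1 male pool only.

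SARS1, the cytosolic seryl-tRNA synthetase on chromosome 3, came next in p. It was at 296, 270, 315, 262 and 304 CPM in the males and at 167 to 293 CPM in the females (median 227), with a log2 fold change of 0.35 (SE 0.16, edgeR adjusted p = 0.382). CARS1 and GARS1, the cysteinyl- and glycyl-tRNA synthetases, had larger fitted differences, 0.77 and 0.55 on the log2 scale, with edgeR adjusted p of 0.424 and 0.401, and larger spreads among the female pools. Without male replicate 5 CARS1 was at 0.36 and GARS1 at 0.45. The other 10 cytosolic genes with a log2 fold change above 0, among them the subunit genes FARSA and FARSB of the phenylalanyl enzyme, lay between 0.19 and 0.35.

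The members that leaned toward females were few and were not separated. The 5 with the smallest p in that direction were IARS2, PARS2, EPRS1, LARS1 and HARS2. IARS2, the mitochondrial isoleucyl-tRNA synthetase on chromosome 16, was at 74.2 to 122 CPM in the female pools (median 103) and at 85.3, 99.2, 83.4, 76.7 and 87.5 CPM in the male pools. Female replicate 5 was the lowest pool of all and the other females lay at 99.3 CPM or higher, with a log2 fold change of -0.23 (SE 0.15, edgeR adjusted p = 0.555). PARS2, the mitochondrial prolyl-tRNA synthetase, had few reads (24 to 81 counts per library) and a log2 fold change of -0.20 (SE 0.29), or -0.06 without male replicate 5. HARS2, the mitochondrial histidyl-tRNA synthetase, was at -0.08 (SE 0.24).

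EPRS1 carries both glutamyl- and prolyl-tRNA synthetase activity for the cytosol, and LARS1 is the cytosolic leucyl-tRNA synthetase. In both genes the lowest of all 11 pools was male replicate 5. EPRS1 was at 260, 211, 342, 199 and 112 CPM in the male pools and at 185 to 324 CPM in the female pools (median 239). LARS1 was at 168, 167, 218, 150 and 91.9 CPM in the males and at 129 to 214 CPM in the females (median 169). The log2 fold changes were -0.09 (SE 0.20) for EPRS1 and -0.07 (SE 0.18) for LARS1. Without male replicate 5 they were 0.09 and 0.08, and without female replicate 5 they were 0.02 and 0.03. The sign of either gene therefore turned when either of these pools was left out.

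**Figure D2:**
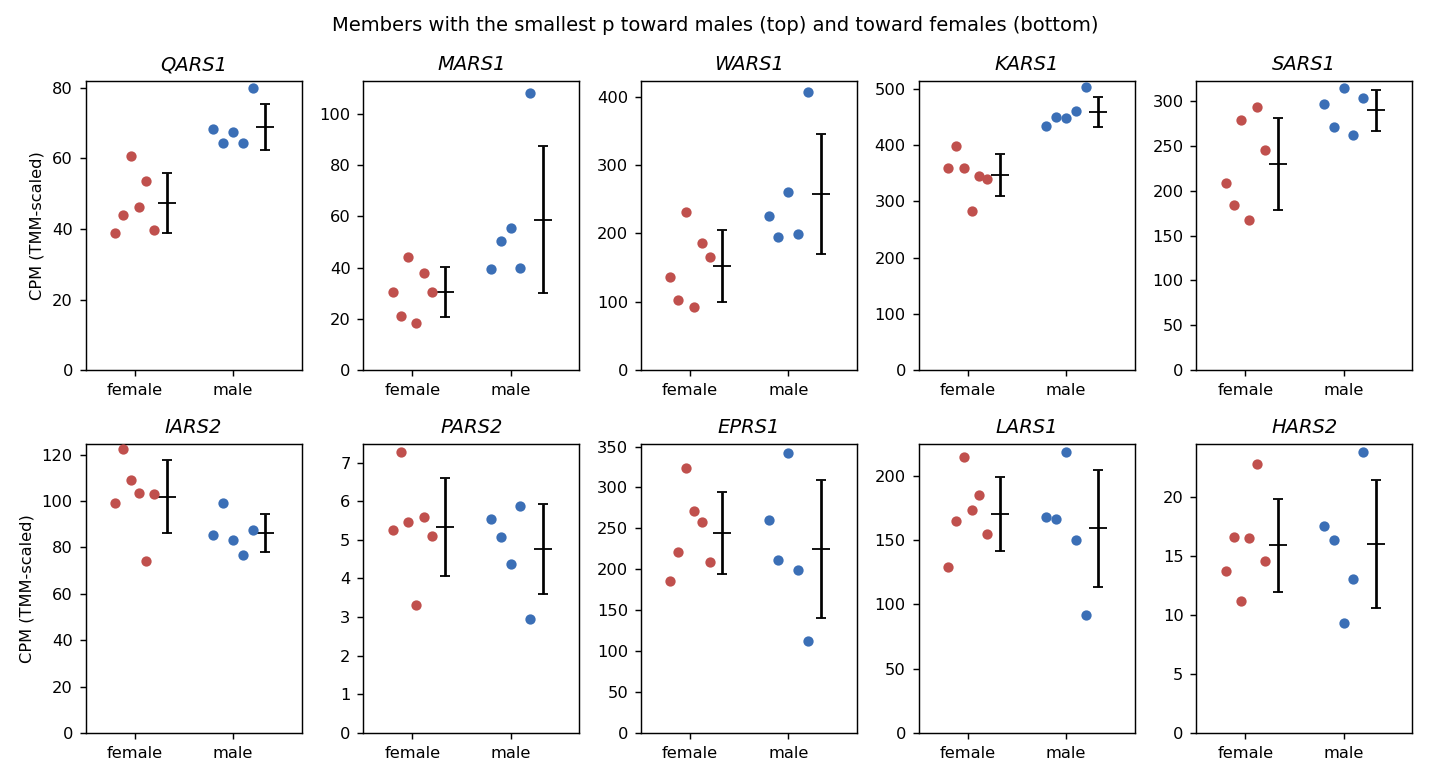
CPM (TMM-scaled, y axis from 0) of the 10 members named by p, in each female (red) and male (blue) pool, with mean and SD beside the points. QARS1 and KARS1 show no overlap between the sexes, male replicate 5 is the highest point in MARS1 and WARS1, and it is the lowest in EPRS1 and LARS1.

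Cytosolic and mitochondrial enzymes were then compared as classes. The 19 cytosolic genes summed to 3237 ± 654 CPM over the 6 female pools and to 3973 ± 487 CPM over the 5 male pools (SD). The male pools were at 3772, 3804, 4836, 3645 and 3811 CPM, and the female pools ran from 2650 to 4389 CPM. Only 1 female pool, replicate 3 at 4389 CPM, lay among the males, since the other females were at 3508 CPM or lower. The 16 mitochondrial genes summed to 383 ± 23.7 CPM over the 6 females and to 402 ± 31.8 CPM over the 5 males (SD), and the pools of both sexes were intermixed, from 354 to 421 CPM in females and from 367 to 449 CPM in males. Thus the mitochondrial share of all synthetase reads was 10.8% ± 1.44 (SD, n = 6) in females and 9.27% ± 1.22 (SD, n = 5) in males. It was lowest in male replicate 3 (7.30%) and female replicate 3 (8.74%), the pools with the highest cytosolic sums, and highest in female replicate 1 (12.4%). These sums are dominated by the genes with most reads and are given with no test. With the median over the enzymes in place of the sum, the share was 7.98% in females and 8.11% in males, so its direction depends on how the class is summarised.

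To weigh each gene alike, the log2 level of each gene was set relative to its own mean over the 11 libraries and averaged over a class. The cytosolic mean ranged from -0.42 in female replicate 4 to 0.38 in male replicate 3, and only female replicates 3 and 5, at 0.31 and 0.07, were above the lowest male pool, replicate 4, which lay at the mean of the libraries. The mitochondrial mean ranged from -0.24 in female replicate 4 to 0.39 in male replicate 5. The classes did not always move together. In male replicate 3 the cytosolic mean was the highest of all pools and the mitochondrial mean was -0.13, and in female replicate 1 the cytosolic mean was -0.41 and the mitochondrial mean 0.01.

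**Figure D3:**
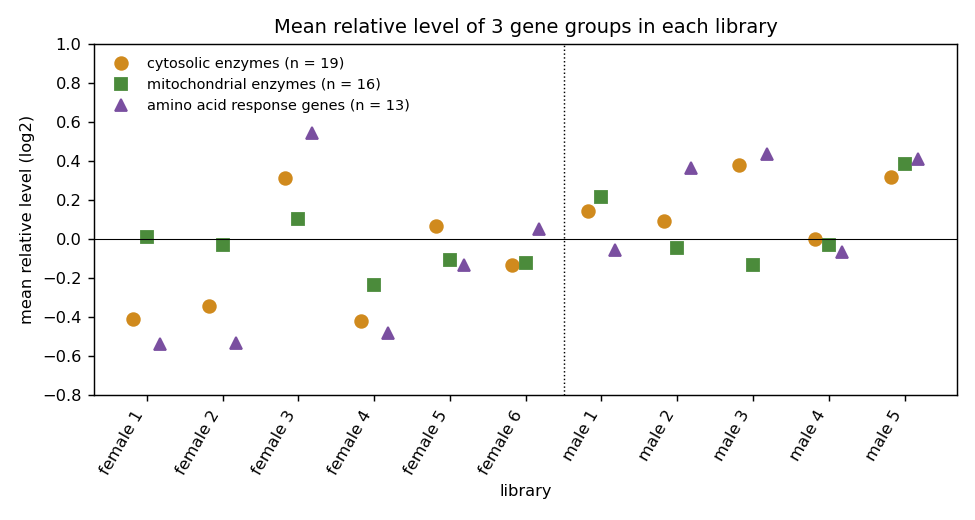
Mean relative level (log2, y axis) of the 19 cytosolic enzymes (circles), the 16 mitochondrial enzymes (squares) and 13 amino acid response genes (triangles) in each library (x axis; females left of the dotted line). Cytosolic enzymes and amino acid response genes are both low in female replicates 1, 2 and 4 and high in female replicate 3 and male replicates 3 and 5, and the mitochondrial enzymes are below 0 in male replicate 3.

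For 13 amino acids the table holds a cytosolic gene ending in 1 and a mitochondrial gene ending in 2, so that their ratio can be followed from pool to pool. The mean log2 ratio of cytosolic to mitochondrial CPM was higher in males in 10 of the 13 pairs (11 without male replicate 5), with a median difference of 0.15 (0.30 without that pool). In none of the pairs were the sexes separated. The largest differences were in tryptophan (WARS1 to WARS2, log2 ratio 3.15 ± 0.60 in 5 male and 2.49 ± 0.43 in 6 female pools, SD), isoleucine (0.96 ± 0.65 and 0.47 ± 0.79) and methionine (3.08 ± 0.68 and 2.59 ± 0.43). Without male replicate 5 the differences were 0.42 for tryptophan, 0.69 for isoleucine and 0.60 for methionine, so that the first place of tryptophan rests on that pool. The ratio of alanine (AARS1 to AARS2) was lower in males, at 4.20 ± 0.40 and 4.46 ± 0.95. Within a pair the ratio moved widely between pools: that of TARS1 to TARS2 was 6.64 in male replicate 3 and 4.68 in male replicate 5, and that of IARS1 to IARS2 ran from -0.27 to 1.94. Ratios are not comparable between amino acids because transcript lengths differ.

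Pools of the same sex also differed from each other. From the lowest to the highest of the 11 libraries, the 37 tested members differed from 1.56-fold (WARS2) to 5.96-fold (CARS1). Among the females, their coefficient of variation was from 6.71% (HARS1, the cytosolic histidyl-tRNA synthetase) to 57.1% (CARS1), with a median of 24.0% over cytosolic and 24.6% over mitochondrial enzymes, beside 27.2% over all tested genes. The 4 most variable tested members among the females were all cytosolic: CARS1, GARS1 (51.9%), IARS1 (51.5%) and AARS1 (44.1%). These 4, and TARS1 beside them, are described next, a choice made with their values in view.

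Female replicate 3 had the highest level among the females in 15 of the 37 tested members, where it was the highest female pool for 19.8% of all tested genes. Of these, 13 were cytosolic, out of 19, and 2 were mitochondrial, out of 16. Yet 14 of the 19 cytosolic and 13 of the 16 mitochondrial enzymes were above their own mean over the libraries in female replicate 3. The mean relative level of the mitochondrial enzymes there, 0.10, was also the highest of the females. GARS1 was at 322 CPM in that pool and at 95.8 to 165 CPM in the other females. IARS1, the cytosolic isoleucyl-tRNA synthetase, was at 290 CPM there and next highest at 209 CPM in female replicate 5, with the other females at 82.2 to 125 CPM. AARS1, the alanyl enzyme, followed the same order, with 101 CPM in female replicate 3 and 89.1 CPM in female replicate 5 against 34.0 to 50.2 CPM in the rest.

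Among the males, replicate 3 was high in part of the list. It was the highest male pool in 11 members, against 21% of all tested genes, and 8 of these were cytosolic. TARS1, the cytosolic threonyl-tRNA synthetase, was at 874 CPM there and at 418 to 560 CPM in the other males, and was highest among females in replicate 3, at 730 CPM. IARS1 was at 320 CPM in male replicate 3 and at 97.4 to 172 CPM in the other males. Female replicate 4 was the lowest female pool in 16 of the 37 members, against 16.7% of all tested genes. Female replicates 3 and 4 and male replicate 3 carry library number 2.

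Genes of the amino acid response varied between the same pools. ASNS, asparagine synthetase, was at 415 CPM in female replicate 3 and 313 CPM in female replicate 5, and at 105 to 150 CPM in the other females. PHGDH, the first enzyme of serine synthesis, was at 149 CPM in female replicate 3 and 14.3 CPM in female replicate 1. ATF4 itself was at 465 CPM in female replicate 3 and 124 to 276 CPM in the other females. In the males, ASNS was highest in replicate 3 (509 CPM), PHGDH was highest in replicate 5 (148 CPM, with 78.5 CPM in replicate 3), and ATF4 was at 342, 339 and 348 CPM in replicates 3, 4 and 5. Not every response gene was high in female replicate 3, where 10 of 13 were above their own mean over the libraries and the relative level was -0.47 for MTHFD2 and -0.32 for SESN2. The mean relative level of the 13 tested response genes was 0.54 in female replicate 3, from -0.54 to -0.48 in female replicates 1, 2 and 4, and 0.37, 0.44 and 0.41 in male replicates 2, 3 and 5, with male replicates 1 and 4 at -0.05 and -0.07. The part of this response in the synthetase levels was not tested. The pools also differed in cell type markers: the trophectoderm sum was lowest in female replicate 3 (7879 CPM) and male replicate 3 (9195 CPM), and the inner cell mass and hypoblast sums were the highest of the females in female replicate 3 (980 and 621 CPM). The part of these markers in the result was not tested.

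**Figure D4:**
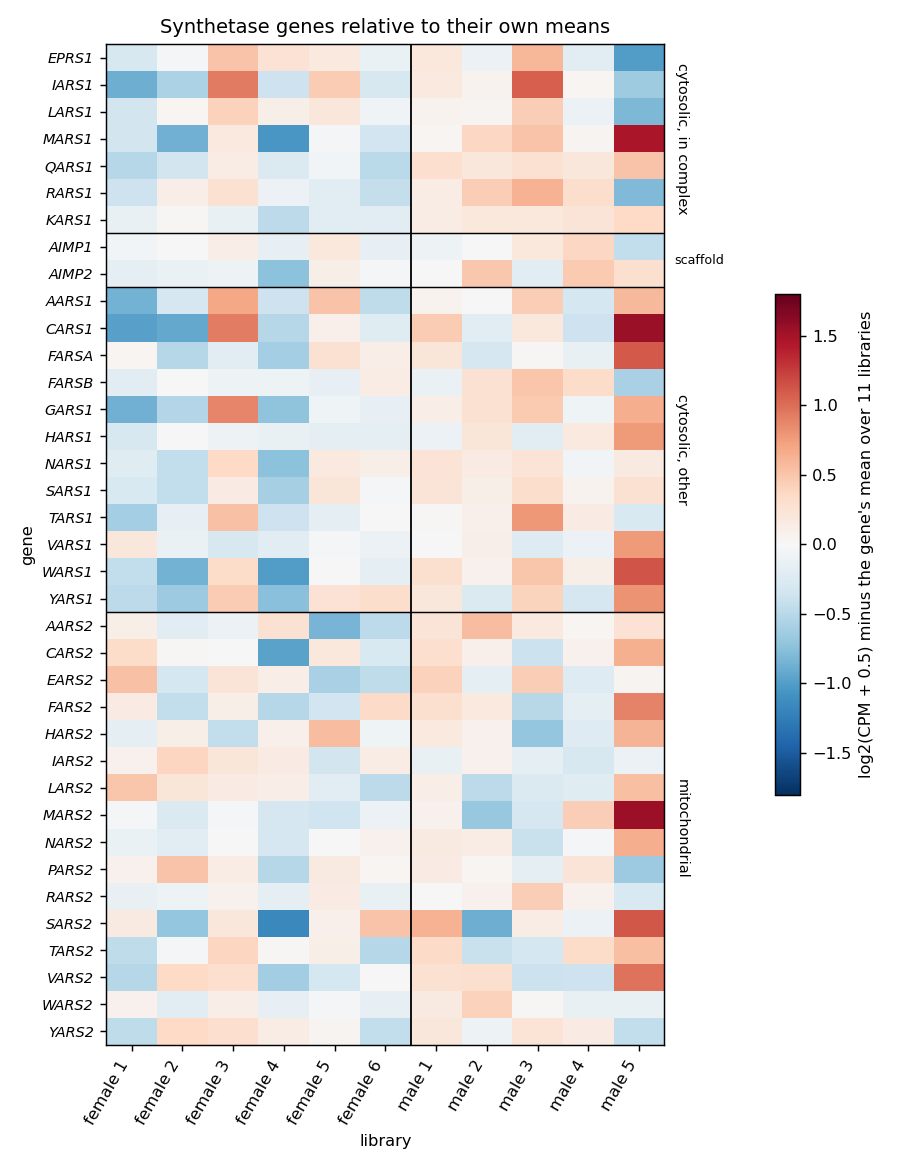
Level of each of the 37 tested genes in each library, as log2(CPM + 0.5) minus the gene's mean over the 11 libraries (color), with females left and males right of the vertical line and genes grouped by enzyme class. Female replicate 3 and male replicate 3 are high in IARS1, TARS1 and GARS1, and male replicate 5 is high in MARS1, CARS1 and MARS2 and low in EPRS1, LARS1 and RARS1.

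Male replicate 5 showed another pattern, with members at both ends. It was the highest male pool in 20 of 37 members and the lowest in 11, against 33.3% and 34.7% of all tested genes. By Dixon's criterion, with its gap to the next male pool set against the range of the males, it stood apart in 5 of the 37, against 8.8% of all tested genes. The highest included MARS1, CARS1 (105 CPM against 27.1 to 48.6 CPM in the other males), FARSA (98.4 against 36.7 to 53.0 CPM), and MARS2, the mitochondrial methionyl enzyme (17.0 against 3.28 to 7.71 CPM). The lowest included EPRS1, LARS1, RARS1 and FARSB. FARSA and FARSB encode the subunits of 1 enzyme, and in this pool they moved apart: FARSB was at 190 CPM and at 263 to 401 CPM in the other males. The pool's deviation in gene number and trophectoderm markers is given above, and its part in these levels was not tested.

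The 9 genes of the multisynthetase complex in the list had a median log2 fold change of 0.34, with 7 of 9 above 0. In male replicates 1 to 4, 7, 8, 8 and 7 of the 9 were above their own mean over the libraries, as were 7 in female replicate 3 and 0 in female replicates 1 and 6. In male replicate 5, the highest male pool for 33.3% and the lowest for 34.7% of all tested genes, 4 of the 9 were above it. There EPRS1, IARS1, LARS1, RARS1 and AIMP1 were each the lowest of the males, while MARS1, QARS1 and KARS1 were each the highest. RARS1, the cytosolic arginyl-tRNA synthetase, was at 332, 412, 466, 375 and 174 CPM in the male pools, and at 224 to 364 CPM in the females. Of the scaffold genes, AIMP1 had a log2 fold change of 0.03 (SE 0.16) and AIMP2 one of 0.33 (SE 0.16, edgeR adjusted p = 0.403). AIMP2 was at 99.6, 141, 87.2, 139 and 123 CPM in the males and at 59.8 to 108 CPM in the females.

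The mitochondrial enzymes were counted with fewer reads, from 15 in AARS2 to 1805 in IARS2 in a single library, and none had an unadjusted p under 0.05. The largest fitted difference was that of AARS2, the mitochondrial alanyl-tRNA synthetase, at 0.57 (SE 0.33, edgeR adjusted p = 0.495). It was at 3.72, 4.76, 3.54, 3.18 and 3.78 CPM in the male pools and at 1.5 to 3.85 CPM in the females, on 15 to 78 counts per library. RARS2 and WARS2, the arginyl and tryptophanyl enzymes, were the steadiest among the females (coefficients of variation of 9.32% and 9.48%), with log2 fold changes of 0.15 and 0.12 (0.23 and 0.15 without male replicate 5). SARS2 and MARS2 were the most variable among all libraries, with 5.15-fold and 5.19-fold ranges, the lowest of SARS2 in female replicate 4 and the highest of both in male replicate 5.

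Some of the genes are neighbours on the genome. HARS1 and HARS2 lie 127 bases apart on chromosome 7, and EPRS1 and IARS2 lie 49.4 kb apart on chromosome 16. HARS1 had a log2 fold change of 0.31 (SE 0.18) and HARS2 one of -0.08 (SE 0.24), or 0.17 and -0.23 without male replicate 5, and EPRS1 and IARS2 were at -0.09 and -0.23. The difference between neighbours was not tested. HARS1 was at 109 CPM in male replicate 5 and at 51.8 to 73.7 CPM in every other library. HARS2 was highest in the same pool, at 23.8 CPM, but also at 22.8 CPM in female replicate 5. Annotated genes overlap AARS1 by 22782 bases (DDX19B), RARS2 by 17408 bases (SLC35A1) and YARS2 by 13951 bases (DNM1L), and reads of such regions cannot be assigned here by strand.

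TARS3 was the only member under the count filter. It had from 0 to 7 counts in 10 libraries and 36 counts, 1.74 CPM, in male replicate 5. The male mean was 0.430 CPM and the female mean 0.323 CPM (exact permutation test, two-sided, p = 0.844, where the smallest p possible is 0.00216). Without male replicate 5 the male mean was 0.101 CPM (exact permutation test, p = 0.181). In most pools it was at or near the limit of 3 counts that a count of 0 allows, so a difference was not detectable at this depth.

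Of the other genes that serve tRNA charging, 10 were tested and 0 were called sex-biased (1.91% of all tested genes were) or had an unadjusted p under 0.05. Their fitted log2 fold changes were above 0 for 7 of 10, with a median of 0.11. EEF1E1, the third scaffold protein of the complex, averaged 147 ± 36.2 CPM over the 5 males and 129 ± 12.8 CPM over the 6 females (SD), a log2 fold change of 0.19 (SE 0.18), or 0.31 without male replicate 5. GATB, GATC and QRSL1, the subunits of the mitochondrial enzyme that converts glutamyl- to glutaminyl-tRNA, lay between 0.07 and 0.21 (from -0.07 to 0.24 without that pool). DTD2, which removes wrongly charged amino acids, was at -0.55 (SE 0.37), or -0.27 without male replicate 5, with 1.60 CPM in male replicate 5 and 7.85 to 9.53 CPM in the other males.

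The elongation factors that receive charged tRNA, cytosolic and mitochondrial, all had fitted log2 fold changes above 0 (8 of 8, median 0.31). In the main test none passed the call (0 of 8), although 4 had an unadjusted p under 0.05. Over all tested genes, 50.5% were above 0, 1.91% were called and 6.26% had such a p toward males. EEF1G, a subunit of the exchange factor of EEF1A, averaged 686 ± 172 CPM over the 5 males and 443 ± 54.1 CPM over the 6 females (SD), a log2 fold change of 0.58 (SE 0.16, edgeR adjusted p = 0.122). EEF1D, of the same factor, was at 172, 196, 148, 180 and 299 CPM in the males and at 117 to 144 CPM in the females, with no overlap between the sexes (log2 fold change 0.59, SE 0.17, edgeR adjusted p = 0.160). DESeq2 called EEF1G and EEF1D male-biased (adjusted p = 0.0478 and 0.0748). So did edgeR without the count filter (adjusted p = 0.0526 and 0.0887) and without the block (adjusted p = 0.0716 and 0.0881). The same fits called 0.683%, 0.876% and 0.75% of genes as higher in males. EEF1G was also called without male replicate 4 (edgeR adjusted p = 0.0962). TUFM, the mitochondrial counterpart of EEF1A1, was at 92.8, 65.6, 59.8, 71.5 and 156 CPM in the males and at 56.8 to 60.7 CPM in the females. Its log2 fold change was 0.53 (SE 0.22, edgeR adjusted p = 0.333). Male replicate 5 was the highest pool in EEF1G, EEF1D and TUFM. Without it their log2 fold changes were 0.44, 0.41 and 0.28.

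Of the 15 amino acid response genes, 13 were tested, and 10 had a fitted log2 fold change above 0. The median over the 13 was 0.60. In the main test the call took 0 of the 13, while 3 had an unadjusted p under 0.05 (ASNS, TRIB3 and SHMT2), all higher in males. Over all tested genes the shares were the same 50.5%, 1.91% and 6.26%. DESeq2 called SHMT2 male-biased (adjusted p = 0.0791), where it called 0.683% of genes as higher in males. Without the count filter edgeR called ASNS, PHGDH, SHMT2 and PSAT1 (adjusted p from 0.00458 to 0.0423), all higher in males, where it called 0.876%. ASNS had a log2 fold change of 0.76 (SE 0.34, edgeR adjusted p = 0.363), or 0.93 without male replicate 5. SHMT2, of mitochondrial serine use, had one of 0.83 (SE 0.27, edgeR adjusted p = 0.195), or 0.60 without that pool. EIF2AK4, the kinase that senses uncharged tRNA, lay on the other side, with a mean of 31.2 ± 4.51 CPM over the 6 females and 23.5 ± 4.85 CPM over the 5 males (SD, log2 fold change -0.36, SE 0.17, edgeR adjusted p = 0.387). Within this list the median coefficient of variation among the female pools was 40.1%, against 24.0% among the cytosolic synthetases and 27.2% over all tested genes.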

How the data were processed

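Expanded blastocyst libraries of 6 female and 5 male pools were analysed, and the 4-cell Iso-seq sample was not used here. The authors deposited raw counts per gene, without normalization, made by featureCounts after read trimming (fastp 0.20.0) and alignment to ARS-UCD 2.0 (STAR 2.7.10b). Strand and multimapping settings are not given in the sources used here. Symbols were joined to RefSeq genes of ARS-UCD 2.0 (30271 of 32637 matched; all 38 members did).

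Counts were filtered with filterByExpr by sex (12802 genes), scaled with TMM factors and tested in R 4.3.3 with edgeR 4.0.16 (quasi-likelihood test, library number as a block in place of the study's collection week, Benjamini-Hochberg adjustment over all tested genes). Standard errors are the log2 fold change over the root of F. Relative levels use log2(CPM + 0.5). The study had a collection week for its samples, but nothing in the labels says which pools came from separate collections. The p-values of the main test therefore measure the spread between pools that remains after the library number. Alternatives used DESeq2 1.42.0, RLE factors, no filter, no block, an FDR of 0.05, and fits without each library. The exact permutation test and summaries used python 3.11.15, numpy 2.4.6, pandas 2.3.3 and scipy 1.17.1.

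The members and lists were chosen with earlier results of these data known. Members named with values in every library were those called, the 5 with the smallest p in each direction and those under the filter. Naming by level per coding length was planned but not possible, since lengths were not used here, and class sums are of CPM. AARSD1 and TDGF1 were not analysed here. No pool was a copy of another (correlation of log2 CPM within a sex from 0.861 to 0.963 across genes, which are not independent replicates).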

Additional observations from a re-analysis of the deposited data

Results flagged for a closer look

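A pool was set apart when its gap to the nearest pool of its sex, divided by the range of that sex, passed Dixon's 95% critical value. This was examined in 76 groups (38 genes in both sexes) and met in 7, where chance gives about 1 in 20 groups. Over all tested genes some pool was set apart in 12.2% of the male and 6.44% of the female groups. In 6 of the 7 the pool was male replicate 5, at the high end: CARS1 at 105 CPM, FARSA at 98.4 CPM, MARS1 at 108 CPM, QARS1 at 79.9 CPM, VARS1 (the cytosolic valyl-tRNA synthetase, 23.3 to 29.8 CPM in the other males) at 47.3 CPM and TARS3 at 1.74 CPM. Over all tested genes, male replicate 5 was set apart in this way in 8.8%, and among the 37 tested members in 5. The seventh was GARS1 in female replicate 3, at 322 CPM. Among the class sums, that of the cytosolic enzymes in male replicate 3 was set apart from the other males, at 4836 CPM against 3645 to 3811 CPM.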

How the results depend on the processing

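No member was called under RLE factors, an FDR of 0.05 or a fit with no replicate block, 2 were called by DESeq2 and 3 with no filter, and from 0 to 1 when each library was left out (1 without female replicate 3, WARS1). The cause was not tested. Over all tested genes the count of calls was 245, against 652 by DESeq2, 743 with no filter (both over 23857 genes), 125 at an FDR of 0.05, 326 with no replicate block and from 95 (without male replicate 3) to 364 (without male replicate 5) with a library left out. Deviations of same-numbered male and female pools correlated at -0.11 to 0.35 across genes in 10 pairs (median 0.00). Those of other pairs correlated at -0.30 to 0.24 in 20 pairs (median -0.05). The highest value, 0.35, was that of female replicate 3 and male replicate 3. These ranges overlap and cannot show whether a shared number marks a shared collection. The block is a number taken from the labels. The median log2 fold change with a library left out was 0.28 to 0.40 for cytosolic and 0.08 to 0.23 for mitochondrial enzymes, the lowest of the latter without male replicate 5.

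The sign of the log2 fold change turned in 9 members, none of them called. With a library left out EPRS1 ranged from -0.18 to 0.088 and LARS1 from -0.15 to 0.084, above 0 without female replicate 5 (0.023 and 0.027) and highest without male replicate 5. Without male replicate 5, VARS1 was at -0.0015, FARS2 at -0.0037 and VARS2 at -0.027, the low ends of ranges that reached 0.26, 0.39 and 0.48. HARS2 ranged from -0.23 to 0.073 and was at 0.013 with no replicate block, LARS2 ranged from -0.31 to 0.072, YARS2 from -0.055 to 0.18, and AIMP1 from -0.097 to 0.14.

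Given as the median over enzymes in place of the sum, the cytosolic level was 146 CPM in females and 170 CPM in males, the mitochondrial level 11.7 and 13.6 CPM, and the mitochondrial share 7.98% in females and 8.11% in males, so that the share was no longer lower in males. Without GARS1 and KARS1, which serve both compartments, the share was 12.6% in females and 11% in males, and the male cytosolic sum 3298 CPM. With a library left out, cytosolic sums were 3007 to 3354 CPM in females and 3758 to 4056 CPM in males, mitochondrial sums 375 to 388 CPM and 390 to 411 CPM, and the share 10.5% to 11.2% and 8.96% to 9.77%. Mitochondrial genes had a median lowest count of 61 against 765 for cytosolic genes, which limits what their differences can show.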
